A study of Homo sapiens with 2 samples.

Results

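The Krüppel-like factor (KLF), specificity protein (SP) and early growth response (EGR) genes encode zinc finger transcription factors. Taken as the protein-coding genes of the RefSeq table with a symbol KLF or EGR followed by a digit, or SP followed by a single digit, they numbered 31 of 19974 protein-coding genes on chromosomes 1 to 22 and X, namely 18 KLF, 9 SP and 4 EGR genes. Their positions were set beside ChIP-seq peak summits for WSTF, the bromodomain protein encoded by BAZ1B that partners the ISWI ATPase SMARCA5, in SW620, an established human colorectal cancer line grown from a nodal metastasis. The series holds 2 samples, 1 titled SW620-IP and 1 titled SW620, both labelled as colon and as this cell line, and 1 list of 2697 summits with a score each, of unknown depth and with no replicate list. The design text describes WSTF overexpression and the series title WSTF knockdown, so the WSTF level of the cells is not known here, and the sample titled SW620 was not taken as input because its labels do not say so. A gene was counted as having a summit when 1 lay inside its outer limits or within 1 kb of them. A gene without one is not shown to lack WSTF.

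KLF and SP proteins share a carboxy-terminal block of C2H2 zinc fingers that contacts GC boxes and the related CACCC boxes of promoters and enhancers, and their differing amino-terminal parts recruit coactivators or corepressors. EGR proteins bind a related GC-rich site with zinc fingers of the same kind and are immediate early genes, induced within minutes of growth factor or stress signals without new protein synthesis. In the intestinal epithelium KLF5 is known for crypt cell proliferation and KLF4 for differentiation, including that of goblet cells.

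The promoters below are shown because a summit lay in or just beyond them, or, for KLF5, because its first and second start differ. Each is the 300 bases from 250 before to 50 after a start site, from RefSeq (GRCh38.p14, 5′ to 3′ on the gene's strand). Capitals mark matches on either strand to the GC box GGGCGG and to the CACCC box, the motifs that KLF and SP proteins themselves bind. Matches may overlap.

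KLF11, chr2:10043579-10043878 (+ strand): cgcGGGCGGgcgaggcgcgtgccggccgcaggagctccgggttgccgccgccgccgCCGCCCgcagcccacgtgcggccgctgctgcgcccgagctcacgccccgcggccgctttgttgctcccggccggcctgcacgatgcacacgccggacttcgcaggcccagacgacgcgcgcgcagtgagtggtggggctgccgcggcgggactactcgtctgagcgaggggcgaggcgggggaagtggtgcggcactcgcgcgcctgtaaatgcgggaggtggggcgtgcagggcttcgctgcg
SP1, second start, chr12:53380394-53380693 (+ strand): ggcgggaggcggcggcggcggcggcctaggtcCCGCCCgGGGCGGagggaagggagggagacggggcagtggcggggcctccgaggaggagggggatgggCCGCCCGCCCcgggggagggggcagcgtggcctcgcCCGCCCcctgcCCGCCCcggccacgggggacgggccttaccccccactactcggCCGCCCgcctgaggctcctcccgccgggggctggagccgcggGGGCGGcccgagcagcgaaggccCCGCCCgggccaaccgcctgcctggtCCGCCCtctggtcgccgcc
KLF2, chr19:16324576-16324875 (+ strand): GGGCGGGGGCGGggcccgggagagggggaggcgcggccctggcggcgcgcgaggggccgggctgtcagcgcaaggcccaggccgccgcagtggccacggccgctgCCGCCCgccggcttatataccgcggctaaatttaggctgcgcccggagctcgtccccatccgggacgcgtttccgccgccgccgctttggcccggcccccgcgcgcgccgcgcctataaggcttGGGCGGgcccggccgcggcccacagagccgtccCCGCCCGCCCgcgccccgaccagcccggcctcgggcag
KLF13, chr15:31326585-31326884 (+ strand): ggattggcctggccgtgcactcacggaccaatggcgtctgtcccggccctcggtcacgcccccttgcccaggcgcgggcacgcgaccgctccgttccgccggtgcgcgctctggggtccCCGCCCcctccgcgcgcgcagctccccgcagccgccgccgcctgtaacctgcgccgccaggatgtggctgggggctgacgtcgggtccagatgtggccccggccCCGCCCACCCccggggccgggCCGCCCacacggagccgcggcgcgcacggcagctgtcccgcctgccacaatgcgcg
KLF12, internal start, chr13:74133880-74134179 (− strand): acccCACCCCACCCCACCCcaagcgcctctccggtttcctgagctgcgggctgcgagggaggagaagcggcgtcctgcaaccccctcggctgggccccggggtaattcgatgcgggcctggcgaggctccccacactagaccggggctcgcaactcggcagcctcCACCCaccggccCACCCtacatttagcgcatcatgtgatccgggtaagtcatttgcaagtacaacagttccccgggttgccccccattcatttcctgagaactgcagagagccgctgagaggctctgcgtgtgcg
KLF5, first start, chr13:73054726-73055025 (+ strand): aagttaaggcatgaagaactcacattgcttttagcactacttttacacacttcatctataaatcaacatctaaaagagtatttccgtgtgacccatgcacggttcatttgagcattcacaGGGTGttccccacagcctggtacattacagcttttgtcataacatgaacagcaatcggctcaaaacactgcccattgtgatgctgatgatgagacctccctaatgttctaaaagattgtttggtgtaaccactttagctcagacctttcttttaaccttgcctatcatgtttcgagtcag
KLF5, second start, chr13:73058755-73059054 (+ strand): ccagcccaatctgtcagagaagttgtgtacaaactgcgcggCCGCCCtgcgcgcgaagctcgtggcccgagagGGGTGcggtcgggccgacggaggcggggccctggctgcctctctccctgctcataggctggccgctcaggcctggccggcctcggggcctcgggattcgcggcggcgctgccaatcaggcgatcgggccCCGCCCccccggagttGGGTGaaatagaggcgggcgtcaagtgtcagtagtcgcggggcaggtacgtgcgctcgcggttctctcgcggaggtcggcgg

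A summit was found at 11 of the 31 genes (35.5%, exact 95% interval 19.2 to 54.6, counting error only), where 13.8% of all protein-coding genes had one. They were KLF2, KLF4, KLF5, KLF10, KLF11, KLF12, KLF13, KLF16, SP1, SP5 and EGR2. With KLF genes alone the count was 8 of 18 (44.4%), with SP genes 2 of 9 (22.2%) and with EGR genes 1 of 4 (25%). The genes lie on 15 chromosomes, and the mean over them of their own chromosome's share of genes with a summit was 13.4%, a background chosen after seeing the data. These counts come from 1 list and no test of the difference was made. The 31 genes were themselves chosen with earlier results of these data known, so the interval does not measure support for a difference. The counts of subgroups given below stand beside the same 13.8% of all protein-coding genes.

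**Figure D1:**
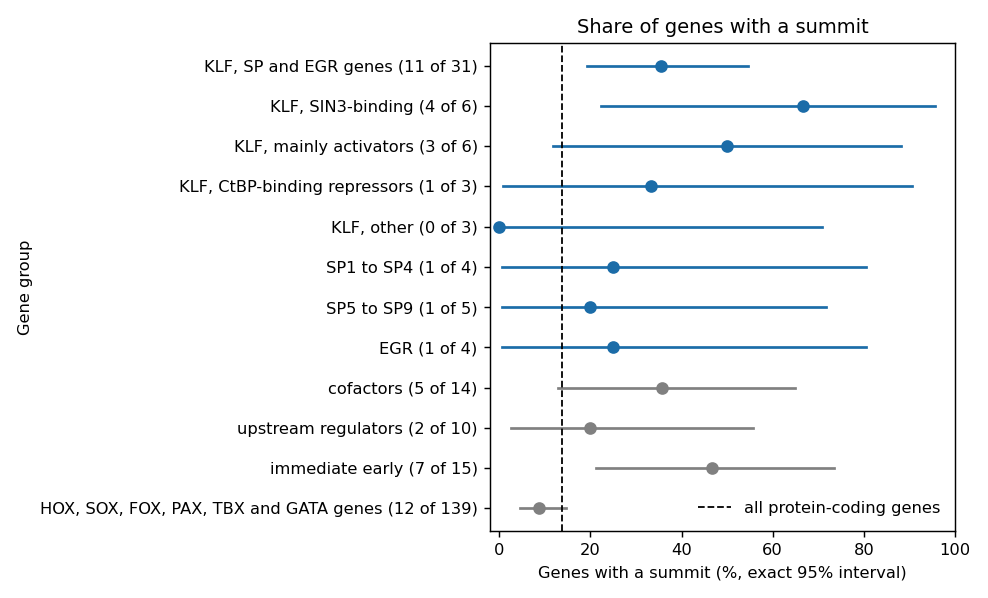
Percent of genes counted as having a summit under the 1 kb rule, for the KLF, SP and EGR genes and their subgroups (blue) and for 4 other gene lists (grey), with exact 95% intervals. The dashed line is the 13.8% of all protein-coding genes. The genes and lists were chosen with earlier results of these data known. The 31 genes stand at 35.5% and the SIN3-binding KLF genes at 4 of 6, with an interval from 22.3 to 95.7%.

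The KLF genes whose products recruit the SIN3 corepressor had summits at 4 of 6 members (exact interval 22.3 to 95.7%), where 13.8% of all protein-coding genes had one. The summit at KLF11, a TGF-β-inducible repressor gene, had the highest score among the 31 genes. It lay at chromosome 2 position 10043890 (hg38), 61 bp downstream of a start, with a score of 13.99 on the −log10 q scale and rank 13 of 2697. The score is the authors' own value for each peak and is used here to rank peaks within the list. In the KLF11 promoter above, at the first of 2 listed starts, the summit falls just past the last base shown. The second start, at position 10044221, lies downstream of the summit, and its window, not shown, held 7 GC boxes. KLF10, which is also TGF-β-inducible, had a summit 177 bp outside its upper end with a score of 5.31 (rank 524), between the gene and the non-coding gene LOC101927245, 346 bp away. KLF16, a gene for a GC-box-binding repressor, had a summit with a score of 4.30 (rank 1028), 360 bp upstream of its listed start and 11540 bp inside the gene's outer limits. A further, weak summit lay 3848 bp outside KLF16, beyond the 1 kb limit, with a score of 1.41 (rank 2674). KLF13, known for regulating CCL5 in T lymphocytes, had one 183 bp upstream of its start with a score of 3.13 (rank 1706). This group thus spanned the list from its top ranks to below its median score of 3.72. KLF9 and KLF14 had no summit.

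Among the 6 KLF genes known mainly as activators, 3 had a summit (exact interval 11.8 to 88.2%), where 13.8% of all protein-coding genes did. KLF2, a gene of endothelial flow responses and T-cell quiescence, had a summit 99 bp upstream of its start at chromosome 19 position 16324727, with a score of 6.84 (rank 204). It lay 57 bp from the end of the divergent transcript KLF2-DT. KLF11 has such a transcript as well, KLF11-DT, whose end lay 489 bp from the KLF11 summit. Of the 4 KLF, SP and EGR genes with a divergent transcript named after them, 2 had a summit, where 21.9% of all 593 such protein-coding genes did.

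KLF5 had its summit at chromosome 13 position 73059543 with a score of 6.14 (rank 324). The gene has 2 starts in the RefSeq promoter table, and the summit lay 538 bp downstream of the second and 4567 bp from the first. Their sequences differ: the window at the first start had a GC content of 40.7% with 4 CpG dinucleotides and no GC box, and that at the second 71.3% with 37 CpG dinucleotides and 2 GC boxes. KLF4 had a summit 1048 bp downstream of its start, but with a score of 1.41 (rank 2674 of 2697, tied) it was among the weakest of the list. KLF1, an erythroid factor, KLF6 and KLF7 had none. KLF2 and KLF5 therefore stood well above the middle of the list and KLF4 near its lower end.

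Of the 3 KLF genes whose products bind the corepressor CtBP, KLF12 had a summit and KLF3 and KLF8 had none (exact interval 0.84 to 90.6%). The KLF12 summit, at chromosome 13 position 74134053 with a score of 2.36 (rank 2254), lay 171992 bp inside the outer limits of this gene of 619957 bp. It was nevertheless 124 bp upstream of an internal start, shown above, whose window held 5 CACCC boxes and no GC box. The summit lay between this start and another internal one, at position 74134404, whose window held 5 GC boxes and 5 CACCC boxes. KLF15, KLF17 and KLF18 had no summit (0 of 3, exact interval to 70.8%).

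SP1, which encodes the ubiquitous GC-box activator, was the only one of SP1 to SP4 with a summit. It lay at chromosome 12 position 53380608, 36 bp upstream of the second listed start, with a score of 7.28 (rank 168), second to KLF11 among the 31 genes. A further summit lay 8828 bp upstream of the gene, with a score of 6.99 (rank 189). SP2, SP3 and SP4, its closest relatives, had none.

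SP5, a target of Wnt signalling in many tissues, was the only one of SP5 to SP9 with a summit and the only one of the 31 genes with 2. They lay at chromosome 2 positions 170716537 and 170717400, 863 bp apart in a gene of 2742 bp, 1200 and 2063 bp downstream of its start. Their scores were 3.44 and 3.76 (ranks 1521 and 1260), close to the median of the list, and both also lay inside the non-coding gene ERICH2-DT, which spans SP5. Among other protein-coding genes with a summit, 5.92% had 2 or more. The SP5 promoter window held 1 match to the TCF/LEF site ATCAAAG, the motif through which Wnt signals act, 109 to 103 bases upstream of the start, where 1.99% of all protein-coding promoter windows held 1. The window of KLF18, a gene without a summit, held 1 as well.

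SP5, TCF/LEF match in capitals on the other strand, chr2:170715220-170715242 (+ strand): ccgctattCTTTGATgattgggt

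Among the EGR genes, 1 had a summit under the 1 kb rule and 2 had one farther away. EGR2, an immediate early gene also needed for myelination, had one at chromosome 10 position 62817926, 849 bp downstream of the nearest of its 3 listed starts, with a score of 3.25 (rank 1631). This summit lay upstream of the innermost start, at position 62816366. EGR1, the best-studied immediate early gene of the family, had a summit 1253 bp upstream of its start with a score of 2.13 (rank 2434), outside the 1 kb limit. EGR3 had one 1962 bp beyond its upper end with a score of 6.01 (rank 352), also outside it. EGR4 had none within 10 kb. Within 2 kb, a window chosen after seeing the data, the count was therefore 3 of 4 EGR genes and 13 of the 31 genes, where 14.3% of all protein-coding genes had a summit. The serum response factor motif known as the CArG box, a hallmark of immediate early promoters, was found in the EGR1 window and at 1 EGR2 start and is shown for these in capitals. In all, 3 of 41 KLF, SP and EGR windows held it, as did 1.25% of all protein-coding windows. The remaining window was at 1 start of KLF7, a gene without a summit. No summit fell in the windows shown.

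EGR1, chr5:138465366-138465391 (+ strand): cggtcctgCCATATTAGGgcttcctg
EGR1, chr5:138465388-138465413 (+ strand): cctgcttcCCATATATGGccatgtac
EGR2, innermost start, chr10:62816420-62816445 (− strand): tcctcagtCCATATATGGgcagcgac

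The members nearest to the 1 kb limit were KLF13, inside it at 183 bp, and EGR1, outside it at 1253 bp. Of the 20 genes without a summit, EGR1, EGR3 and SP7, the osteoblast factor gene known as osterix, had their nearest summit within 10 kb, that of SP7 at 4909 bp with a score of 1.53. The other 17 lay between 39394 bp (SP2) and 2227111 bp (SP8) from the nearest summit. The distribution was thus split, with no gene between SP7 and SP2 in distance.

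**Figure D2:**
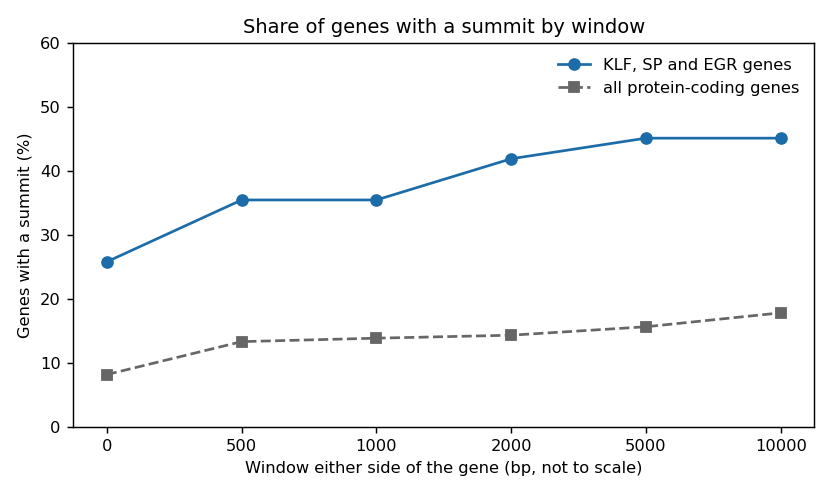
Percent of genes that had a summit inside them or in the window given on the horizontal axis, for the 31 KLF, SP and EGR genes (blue circles) and all protein-coding genes (grey squares). The KLF, SP and EGR share goes from 25.8% inside the gene to 45.2% within 10 kb, and the share of all genes from 8.15% to 17.8%.

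The 12 summits had a median score of 4.03, where summits at other protein-coding genes had 3.72. They ran from 1.41 at KLF4 to 13.99 at KLF11, and 7 of them were at or above the median of all summits. Those of KLF11, SP1 and KLF2, 3 of 12 (25%), ranked in the top 10% of the list. Counting summits at or above the median score alone left 7 genes (22.6%), namely KLF2, KLF5, KLF10, KLF11, KLF16, SP1 and SP5, where 7.34% of all protein-coding genes had such a summit.

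**Figure D3:**
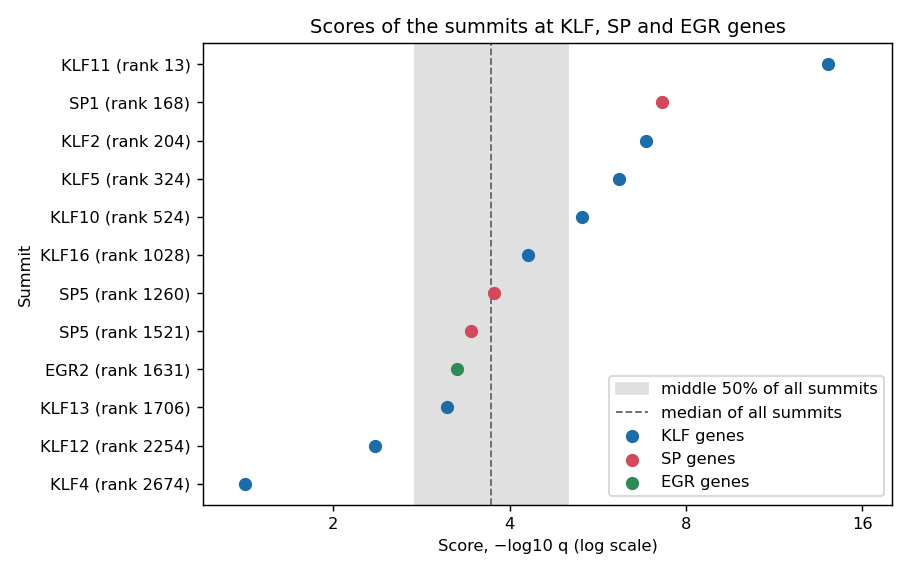
Score of each of the 12 summits at KLF, SP and EGR genes on a log axis in −log10 q, with its rank among 2697 summits. The grey band spans the lower to the upper quartile of all summits, 2.76 to 5.04, and the dashed line their median of 3.72. KLF11, SP1, KLF2, KLF5 and KLF10 lie above the band, KLF12 and KLF4 below it.

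Measured from the nearest listed start, the summits fell at starts or well downstream of them. Starts were listed for 10 of the 11 genes with a summit, all but KLF10. The summits of SP1, KLF11, KLF2, KLF12 and KLF13 lay within 250 bp of a start, and that of KLF16 at 360 bp. The other 5, at KLF5, EGR2, KLF4 and SP5, all lay downstream of the nearest start, by 538 to 2063 bp. That of EGR2 also lay upstream of another listed start, the innermost. Summits more than 500 bp from a start, in either direction, made up 45.5% of these 11, although 2 of them share SP5, and 22.5% of 2459 gene and summit pairs of other protein-coding genes. Summits within 250 bp of one made up 45.5% of the 11 and 61.5% of the pairs of other genes. More than 500 and up to 2500 bp downstream, a range chosen after seeing the 5 summits and drawn around them, lay 6.10% of the pairs of other genes. The median distance from a start, in either direction, was 360 bp for KLF, SP and EGR summits and 187 bp for those of other genes. Because KLF12 and KLF16 have internal starts and KLF4, KLF5 and EGR2 have their summits more than 1 kb inside the outer limits, 6 of the 31 genes (19.4%) had a summit within 1 kb of an outer gene end, where 11.6% of all protein-coding genes did.

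**Figure D4:**
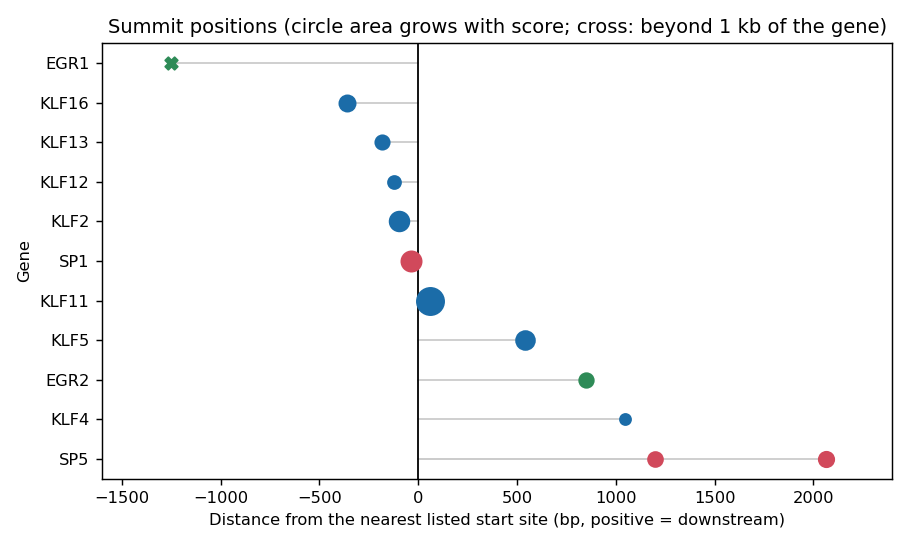
Distance in bp from the nearest listed start site to each summit, for the 10 genes with a summit and a listed start, and for EGR1 (cross), whose summit lies beyond 1 kb. Circle area grows with the score and colour gives the family (blue KLF, red SP, green EGR). The summits of KLF16, KLF13, KLF12, KLF2, SP1 and KLF11 lie between 360 bp upstream and 61 bp downstream, and those of KLF5, EGR2, KLF4 and SP5 between 538 and 2063 bp downstream.

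Promoter sequence was compared over the 41 windows of the 25 genes that matched the RefSeq promoter table. KLF3, KLF10, SP6, SP7, SP9 and EGR3 did not match. Windows of the 10 genes with a summit had a median GC content of 70.2% (40.7 to 86.0, n = 18 windows), and windows of the 15 without one 61.7% (32.7 to 80.3, n = 23). The ranges overlapped widely. Windows of other protein-coding genes showed medians of 67.3% with a summit and 61.3% without. A window was called CpG-rich with a GC content of at least 55% and a ratio of observed to expected CpG of at least 0.6. Among genes with such a window, 9 of 21 KLF, SP and EGR genes (42.9%) had a summit, where 20.2% of all protein-coding genes with one did, a background chosen after seeing the data. SP5 was the only 1 of the 4 genes with windows but none CpG-rich that had a summit, where 4.2% of all such genes did. The SP5 window missed the limit on GC content alone, with 52.3% and a CpG ratio of 0.83, and neither SP5 summit lay in it.

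**Figure D5:**
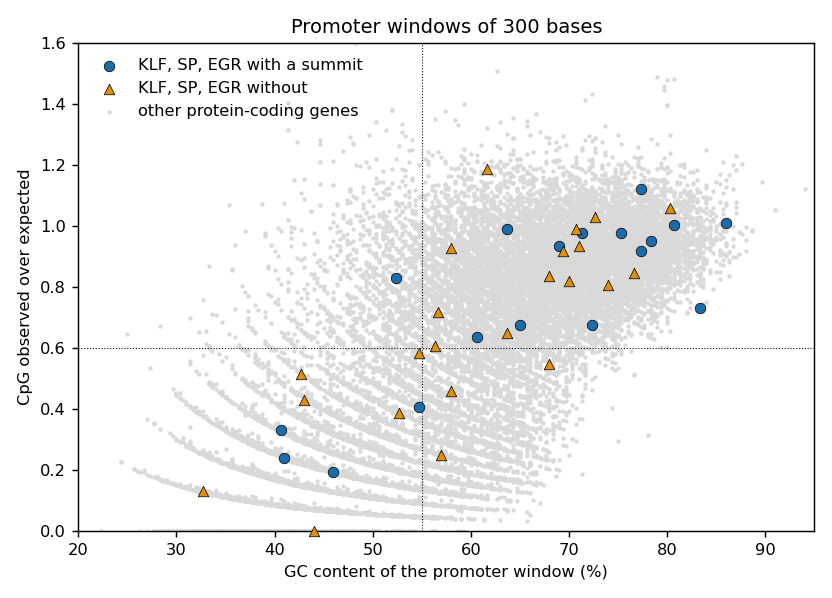
GC content in percent and the ratio of observed to expected CpG of 300-base promoter windows, for KLF, SP and EGR genes with a summit (blue circles, 18 windows) and without (orange triangles, 23 windows), and for other protein-coding genes (grey). Dotted lines mark 55% and 0.6, and 2 windows of other genes beyond the axes are not drawn. Of the windows of genes with a summit, 13 lie above both lines, and of those without, 14.

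A GC box was present in 13 of 18 windows of the genes with a summit (72.2%) and in 15 of 23 windows of those without (65.2%), where 56.3% of all protein-coding windows held 1. Windows of other protein-coding genes held 1 in 71.1% with a summit and 53.5% without. The mean number per window was 3.17 in KLF, SP and EGR genes with a summit and 1.70 in those without, and 1.93 and 1.29 in other genes with and without. The share of windows with a GC box at KLF, SP and EGR genes with a summit was thus close to that of other genes with one. By gene, each of the 10 with a summit had a GC box in at least 1 window. Of the 15 without a summit, EGR1, KLF1, KLF9 and KLF18 had none. Shares by gene were not computed for other protein-coding genes. For CACCC boxes the order by window was the other way, with 8 of 18 (44.4%) and 14 of 23 (60.9%), where 63.4% of all windows held 1. The CCAAT motif of NF-Y was in 5 of 18 (27.8%) and 14 of 23 (60.9%), where 34.6% of all windows held it. Windows of 1 gene are not independent: KLF12 gave 4 of the 18, and KLF7 and KLF8 gave 4 each of the 23. These motif shares are therefore not shares of genes, and no order between genes with and without a summit is drawn from them. The EGR site GCGTGGGCG was in none of the 18 and in 2 of the 23, both overlapping windows of KLF8, where 1.04% of all windows held it. The ETS site CCGGAAG was in none of the 18 and 1 of the 23 (12.8% of all). The cyclic AMP response element TGACGTCA was in 1, the KLF11 window that is not shown, and none (2.26% of all). The E-box CACGTG was in 3 and 3 (8.34% of all). The SP1 window shown above held 10 GC boxes, the most of any of the 41, with its summit 18 bp from the nearest. In the KLF2, KLF12 and KLF13 windows the nearest GC or CACCC box lay 41, 39 and 52 bp from the summit. These 4 windows held the summit themselves, and all 4 were CpG-rich, as were 95.8% of 1108 summit-holding windows of other protein-coding genes. A motif match is not a bound site, and these distances are below the 200 to 500 bp to which chromatin was sheared, per the labels' protocols.

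Genes that act with these factors were taken from 4 lists, chosen with earlier results of these data known. Of 14 cofactor genes, 5 had a summit (35.7%, 12.8 to 64.9), where 13.8% of all protein-coding genes did. They were NAB2 (score 6.87), a corepressor of EGR proteins, CREBBP (5.95), an acetyltransferase that acts as a coactivator, SMARCA4 (4.44), a BAF complex ATPase, SIN3A, with scores of 4.26 and 2.07, and HDAC2 (3.63). SIN3A is the scaffold that the SIN3-binding KLF proteins recruit, those of KLF9 and KLF14, which had no summit, included. Of 10 upstream regulators 2 had a summit (exact interval 2.52 to 55.6%), MAPK7 (5.82) and ELK1 (3.13). MAPK7 is the ERK5 kinase gene upstream of KLF2 and KLF4, and its summit lay nearer to an end of another protein-coding gene. ELK1 encodes the ternary complex factor that acts on EGR1 with serum response factor. SRF itself had none. Of 3 further C2H2 genes, ZBTB7A (2.83) had one.

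Of 15 other immediate early genes, 7 had a summit (46.7%, 21.3 to 73.4, against the same 13.8%). This list too was chosen with earlier results of these data known. NPAS4, an activity-regulated factor gene, had the highest score of the 4 lists, 342 (rank 2). The others were NR4A1, an orphan nuclear receptor gene with scores of 8.54 and 3.19, MYC (5.68 and 3.37), JUNB (5.31 and 4.44), DUSP1 (3.16), IER3 (2.31) and JUND (2.00). The summit at IER3 lay 571 bp outside the gene, nearer to an end of another protein-coding gene. Those of JUNB lay 934 and 2160 bp downstream of its start, that of JUND 891 bp and that of NPAS4 759 bp downstream, while DUSP1 had its summit 21 bp upstream. Those of NR4A1 lay 4527 bp upstream of a listed start and 13548 bp downstream of one, both inside the gene's outer limits, and no start was listed for MYC and IER3. Over the 4 lists 15 of 42 genes (35.7%) had a summit, beside 13.8% of all protein-coding genes. Developmental transcription factor genes of the HOX, SOX, FOX, PAX, TBX and GATA families had one at 12 of 139 (8.63%, 4.54 to 14.6), and ZNF genes of chromosome 19, which like KLF genes encode C2H2 zinc fingers, at 30 of 250 (12.0%, 8.24 to 16.7). None of these differences was tested.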

How the data were processed

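WSTF ChIP-seq in SW620 cells was represented by 1 list of summits. Trimmomatic 0.39, Bowtie2 2.4.4, MACS2 2.2.7.1 and build hg38 are named in the submitters' processing notes, and per the design text peaks were called against input DNA. Pooling of replicates is not stated. The deposited score is read as the authors' −log10 q-value, since the lowest value, 1.31, lies just above the 1.30 of a q of 0.05. Without reads, the depth is unknown.

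Summits were assigned to protein-coding genes of the RefSeq table for GRCh38.p14, whose chromosome coordinates are those of hg38, on chromosomes 1 to 22 and X. Distances to starts, GC content, CpG ratio and exact motif matches on both strands came from the RefSeq promoter windows (Python 3.11.15, pandas 2.3.3). The assignment and the motif search were tested on simulated data. All genes with a summit among the 31 are named, and from the lists every gene with one is given. The members and lists were chosen with earlier results of these data known, and shares are set beside those of all protein-coding genes without a test. Exact Clopper-Pearson intervals (scipy 1.17.1) cover counting error only. Windows, score thresholds and gene ends were varied.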

Additional observations from a re-analysis of the deposited data

How the results depend on the processing

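Of 27 alternative values, 22 stayed within 1.5 times the main value and 5 did not. The count of KLF, SP and EGR genes with a summit, 11, was 8 inside genes alone (8.15% of all protein-coding genes), 10 with scores of at least 2 (12.8% of all) and 14 within 5 or 10 kb (15.6% and 17.8% of all). It was 7 with scores at or above the median (7.34% of all) and 6 at gene ends alone (11.6% of all), where internal starts are not counted. The share with a summit at a gene end, 19.4%, was 41.9% within 5 kb of an end, where that of all genes was 14.5%. The 15 genes of the cofactor, upstream, immediate early and C2H2 lists became 8 inside genes alone and 9 with scores at or above the median, against the same 8.15% and 7.34%. They became 13, without MAPK7 and IER3, when each summit went only to the protein-coding gene with the nearest end (11.7% of all). The KLF, SP and EGR count stayed at 11 under that rule. The median GC content, 70.2%, was 69.3% from 100 bases before the start and 79.5% in windows holding a summit. No paired analysis was possible because the series gave 1 list without replicates. Its unknown depth limits what an absent summit shows.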
